A study of Arabidopsis thaliana with 6 samples.

Results

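Transcripts of the core and variant histone genes were examined in whole seedlings of *Arabidopsis thaliana* Col-0, comparing plants that had received the bacterium *Priestia megaterium* YC4-R4 (treated) with mock-inoculated plants (control). The histone genes were the 42 of 19616 listed genes whose TAIR short description named a histone superfamily protein, a histone H or a histone B and held none of the words acetyl, methyl, ligase or chaperone. That text stood in the column headed as gene type, because the last headings of the table were shifted by 1 column, and the rule was applied to the text itself. Under the column actually headed as short description it would have taken 15 genes, 11 of them among the 42. Of the 42, 40 belonged to named histone classes and 2 did not (AT5G19490, and AT5G50930, which RefSeq lists under the synonym MHF1). Measured histone genes that the wording of the rule left out were HTR11, the H2A.X gene HTA3 and the main linker histone genes HON1 and HON2.

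Both groups were wild-type plants grown from sterilized seed, moved to vermiculite soil as young seedlings and inoculated 1 day later. Treated seedlings received the bacteria in 0.45% NaCl and control seedlings received the same solution without bacteria. All were collected 7 days after treatment (7 DAT), at 13 days after germination, with 3 biological replicates per group and 1 library each. Each sample was a ground mixture of whole plants, and the sources used here do not give the number of plants behind it.

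Core histones H2A, H2B, H3 and H4 form the protein spool of the nucleosome, around which DNA is wrapped, and linker histone H1 sits on the DNA between spools. Replicative histones such as H3.1 are made mainly in S phase, when new DNA has to be packaged, while replacement variants such as H3.3 and H2A.Z are made and exchanged throughout the cell cycle. In growing seedlings, replicative histone transcripts are therefore known as marks of dividing cells in the meristems and young leaves. H2A.Z is loaded by the SWR1 remodelling complex and is found at genes that respond to the environment, H2A.W marks silent heterochromatin, and H2A.X is phosphorylated at DNA breaks. In plants, replicative histone transcripts carry poly(A) tails, unlike most of those of animals.

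The measured classes were replicative H2A (4 genes), H2A.X (1 gene, HTA5), H2A.Z (4 genes), H2A.W (3 genes), H2B (10 genes), H3.1 (5 genes), H3.3 (3 genes), the centromeric H3 gene HTR12, H4 (8 genes) and the linker histone gene HON3. In the RefSeq TAIR10.1 annotation, 22 of the 42 had a single exon, among them every H2B gene, every H3.1 gene and 7 of the 8 H4 genes. The remaining 20 had introns, among them every H2A gene, the H3.3 genes with 3 to 5 exons and HTR12 with 9. The spans of 8 genes overlapped another annotated gene. The 8 H4 genes encoded 1 protein through 8 different coding sequences that were 78.8% to 98.1% identical, and the 5 H3.1 genes also encoded 1 protein, through coding sequences 80.3% to 89.5% identical. The H3.1 protein and the H3.3 protein of HTR5 and HTR8 differed at 4 of 136 residues, while these coding sequences were only 74.0% to 80.3% identical. The third H3.3 gene, HTR4, had 4 annotated transcripts. The one with the longest coding sequence, used here, encoded 164 residues, and HTR4 was left out of that comparison. The proteins of its other transcripts were not examined.

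The stretches below show why reads tell H3.1 and H3.3 transcripts apart although their proteins are almost the same. They come from the coding strand of the H3.1 gene HTR1 (AT5G65360, chr5:26119859-26120581, minus strand) and the H3.3 gene HTR5 (AT4G40040, chr4:18557149-18558945, minus strand) in TAIR10.1, at coding bases 85 to 135 and 253 to 282. Capitals mark the codons of the 4 residues that differ, and many of the lower-case bases differ as well.
HTR1, coding bases 85 to 135: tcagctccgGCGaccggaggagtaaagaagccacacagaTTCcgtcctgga
HTR5, coding bases 85 to 135: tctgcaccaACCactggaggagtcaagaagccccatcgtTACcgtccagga
HTR1, coding bases 253 to 282: ttccagagcAGCgccgtcGCAgcacttcag
HTR5, coding bases 253 to 282: ttccagagcCATgctgtgCTTgcactccag

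Promoters of plant histone genes are known for short shared motifs, of which the octamer CGCGGATC and the hexamer ACGTCA were searched on both strands of the 250 bases before each gene's annotated start. The octamer stood before 9 of the 42 histone genes (21.4%) and before 37 of all 27443 protein-coding genes (0.135%). It was found in 3 of 5 H3.1 genes, 2 of 4 replicative H2A genes, 2 of 8 H4 genes, 1 of 3 H2A.W genes and 1 of 3 H3.3 genes, and in no H2A.Z or H2B gene. The hexamer stood before 11 histone genes (26.2%), 8 of them among the 10 H2B genes, and before 7.69% of all protein-coding genes. Matches to E2F motifs (TTTCCCGC, TTTGGCGC, TTTCGCGC or TTTGCCGC) were found in 3 histone genes (7.14%) and in 1.41% of all, and the nonamer CATCCAACG in none of the 42 and in 0.149% of all. A TATAAA stretch stood in 50% of the histone genes and in 47.3% of all. A match is a description of these letters only.

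The promoters of 4 genes are shown, each as the 250 bases before the start on the gene's own strand, with octamer, hexamer and E2F matches in capitals. HTR2 and HTA10 each hold the octamer 2 times, the most abundant H4 gene AT5G59690 holds it 1 time, and HTB2 holds the hexamer and an E2F match.
HTR2 (H3.1), chr1:2972335-2972584, minus strand: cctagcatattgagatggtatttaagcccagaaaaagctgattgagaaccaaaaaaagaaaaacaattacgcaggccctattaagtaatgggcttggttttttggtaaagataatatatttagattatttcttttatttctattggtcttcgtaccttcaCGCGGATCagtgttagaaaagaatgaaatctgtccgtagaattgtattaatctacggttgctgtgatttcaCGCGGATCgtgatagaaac
HTA10 (replicative H2A), chr1:18926561-18926810, plus strand: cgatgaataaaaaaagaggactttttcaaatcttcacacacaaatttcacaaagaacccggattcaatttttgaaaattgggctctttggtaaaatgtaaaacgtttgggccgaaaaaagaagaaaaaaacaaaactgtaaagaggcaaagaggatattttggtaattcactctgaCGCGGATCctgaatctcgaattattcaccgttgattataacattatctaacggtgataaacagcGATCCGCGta
AT5G59690 (H4), chr5:24051224-24051473, plus strand: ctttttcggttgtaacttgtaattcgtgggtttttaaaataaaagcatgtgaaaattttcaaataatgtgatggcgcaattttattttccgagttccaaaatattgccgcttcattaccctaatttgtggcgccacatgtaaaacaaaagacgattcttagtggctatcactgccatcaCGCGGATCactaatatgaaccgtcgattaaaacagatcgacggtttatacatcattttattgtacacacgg
HTB2 (H2B), chr5:7652715-7652964, minus strand: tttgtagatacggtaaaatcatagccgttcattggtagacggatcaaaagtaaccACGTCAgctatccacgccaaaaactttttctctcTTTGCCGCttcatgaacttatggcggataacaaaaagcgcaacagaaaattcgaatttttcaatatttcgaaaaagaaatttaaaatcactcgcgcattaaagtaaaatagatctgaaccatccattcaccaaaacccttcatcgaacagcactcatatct

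The 42 genes were measured from total counts of 15292377 to 21904205 per treated library and 10804936 to 20040520 per control library. Levels are CPM, the count of a gene scaled to a common library total, after TMM normalization in edgeR, which scales each library by the bulk of its genes. Over the 6 libraries the mean levels of the histone genes ran from 1.09 CPM for AT5G19490 to 264 CPM for HTR5, with a median of 41.3 CPM, against 18.7 CPM for all tested genes. The lowest count of a histone gene in any library was 10. Per kilobase of exon, the means ran from 0.847 CPM per kb for AT5G19490 to 175 CPM per kb for HTR5, with AT5G59690 (167 CPM per kb), HTB11 (166 CPM per kb), HTA9 (144 CPM per kb) and HTR1 (143 CPM per kb) next below HTR5. The ranking was led by members of 5 different classes.

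**Figure D1:**
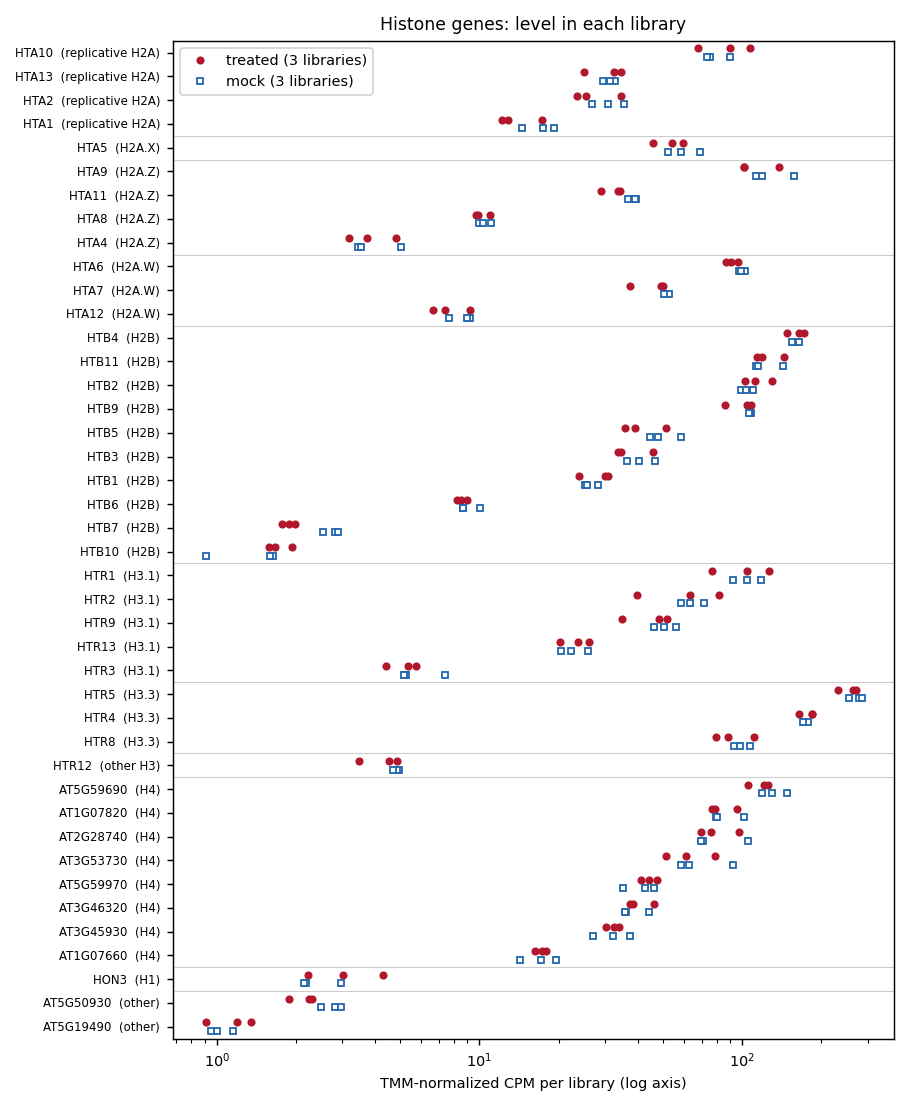
TMM-normalized CPM of each histone gene on a log axis, with filled red circles for the 3 treated libraries and open blue squares for the 3 control (mock) libraries. Mean levels span from 1.09 to 264 CPM. The treated symbols lie wholly below the control symbols in 5 of the 42 rows (HTA11, HTA6, HTA7, HTB7 and AT5G50930) and wholly above them in none. Of all tested genes, 13.8% lay wholly below and 14.5% wholly above.

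No histone gene passed the test between treated and control seedlings. By edgeR's quasi-likelihood test with Benjamini-Hochberg adjustment over 19615 tested genes, 0 of 42 were higher and 0 of 42 were lower at the limits of the study (a fold of at least 1.5 and an adjusted p of at most 0.05). These limits were passed by 1.73% of all tested genes in the higher direction and 1.54% in the lower direction. Without the fold limit, 0 of 42 histone genes were higher and 0 were lower, against 5.1% and 4.52% of all tested genes. DESeq2 and limma-voom also called none of the 42. At an unadjusted p under 0.05, no histone gene was higher (12.1% of all tested genes) and 2 were lower (11.2% of all), and these counts were again 2 in all under DESeq2 and under limma-voom. They moved when 1 library was left out, to 3 higher and 1 lower without treated library 1, 0 higher and 8 lower without treated library 2, 1 higher and 6 lower without treated library 3, and 0 higher and 4 lower without control library 3. The smallest adjusted p of a histone gene was 0.083.

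Small differences with no call leaned towards lower values in treated seedlings. The log2 fold change (treated over control) was below 0 for 28 of the 42 genes (66.7%), against 51.0% of all tested genes. Its median was -0.08 over the histone genes, with a range from -0.56 for HTB7 to 0.38 for HON3, and -0.005 over all tested genes. The 3 treated values lay wholly below the 3 control values for 5 histone genes and wholly above them for none. The same held for 13.8% of all tested genes in the lower direction and 14.5% in the higher direction. The precision was enough to limit most differences, since for 36 of the 42 genes the 95% interval of the fold change lay within a 1.5-fold difference either way. For the other 6 (HTA1, HTB7, HTB10, HON3, AT5G50930 and AT5G19490) the interval reached that far. The standard error of the log2 fold change ran from 0.068 to 0.274 over the histone genes, with a median of 0.113, against 0.105 for all tested genes. In bulk RNA, fewer cells of a type and less RNA per cell cannot be told apart.

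**Figure D2:**
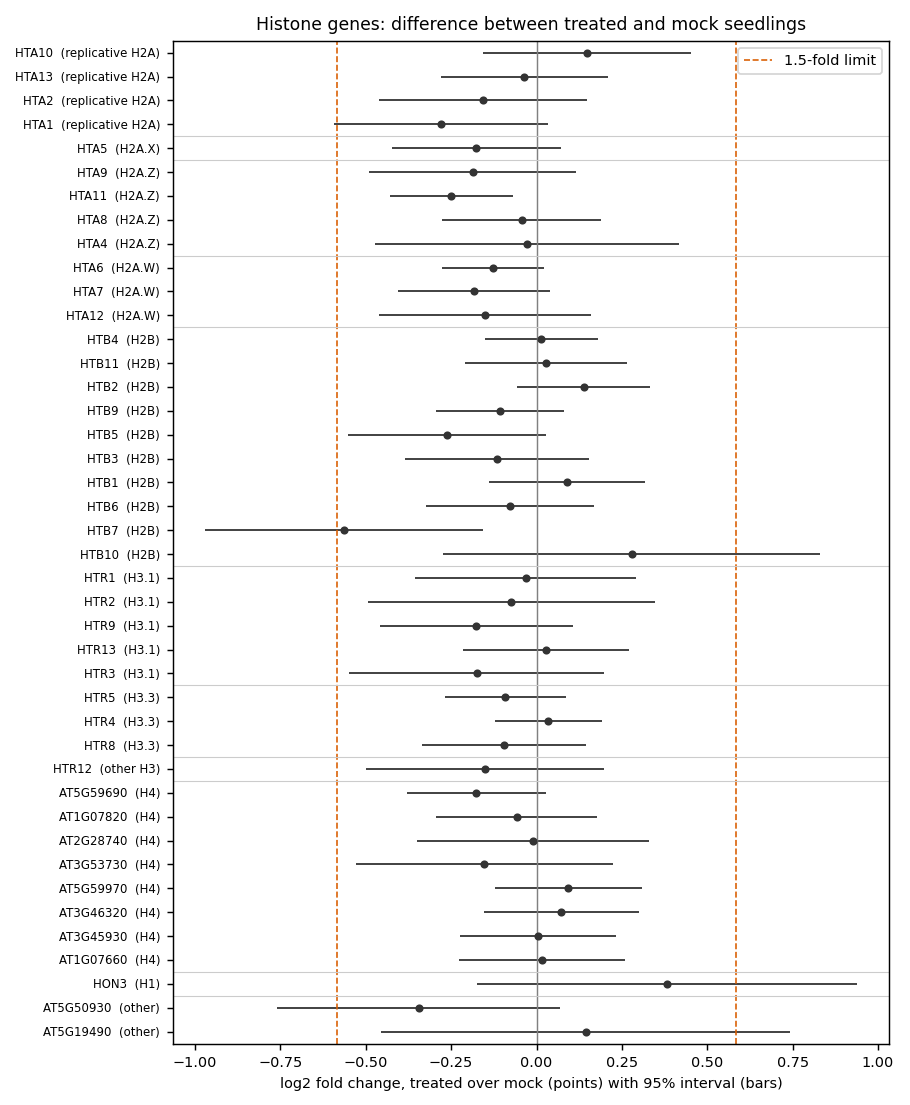
Log2 fold change of each histone gene, treated over control, with 95% interval; dashed lines mark a 1.5-fold difference either way. The intervals of 40 of the 42 genes include 0, and those of HTA11 and HTB7 lie below it.

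The H2A genes held 11 of their 12 log2 fold changes below 0. All 4 H2A.Z genes and all 3 H2A.W genes were among the 11, with values from -0.25 to -0.03, and none passed the test. HTA11 (AT3G54560, chr3:20196140-20197726, plus strand, 3 exons), one of the main H2A.Z genes of Arabidopsis, had 28.9, 33.7 and 34.3 CPM in treated seedlings and 39.3, 39.2 and 36.7 CPM in control seedlings. The groups did not overlap, and the log2 fold change was -0.25 (SE 0.083), a fold of 0.841 with a 95% interval from 0.742 to 0.953. Its edgeR p was 0.011 and its adjusted p was 0.084, which missed the limit.

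HTA9 (AT1G52740, chr1:19645236-19646485, plus strand), the H2A.Z gene with the highest level here, had 102, 138 and 102 CPM in treated seedlings and 157, 113 and 119 CPM in control seedlings. These groups overlapped, with a log2 fold change of -0.19 (SE 0.138, edgeR adjusted p = 0.467), and its span overlaps a gene on the opposite strand. The remaining H2A.Z genes, HTA8 and the weakly transcribed HTA4, had log2 fold changes of -0.04 and -0.03. Summed over the 4 genes, H2A.Z transcripts came to 160 ± 22.6 CPM in treated seedlings and 182 ± 25.3 CPM in control seedlings (SD, n = 3 each). The single values of 144, 186 and 150 CPM in treated and 211, 166 and 170 CPM in control seedlings overlapped.

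For H2A.W, the heterochromatin variant, the summed levels did not overlap. Among single tested genes, 13.8% likewise did not overlap in the lower direction. The H2A.W sums were 131, 150 and 152 CPM in treated seedlings and 163, 159 and 157 CPM in control seedlings, or 144 ± 11.4 CPM against 160 ± 3.07 CPM (SD, n = 3 each). HTA6 (AT5G59870, chr5:24115354-24116220, minus strand), which gave 62.6% of that sum, had 86.4, 90.5 and 96.0 CPM in treated seedlings and 102, 96.9 and 99.0 CPM in control seedlings. All treated values were below all control values, by a log2 fold change of -0.13 (SE 0.068) with an edgeR adjusted p of 0.295. HTA7 had 37.5, 50.1 and 49.3 CPM in treated seedlings and 51.8, 52.8 and 50.6 CPM in control seedlings, again without overlap, with treated library 1 well below the other libraries and the other treated libraries just under the lowest control value. HTA12 (log2 fold change -0.15) overlapped between groups.

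The H2A.X gene HTA5 (AT1G08880, chr1:2846894-2848100, minus strand) had 45.7, 53.8 and 59.4 CPM in treated seedlings and 58.5, 69.3 and 52.3 CPM in control seedlings. The groups overlapped, and the log2 fold change was -0.18 (SE 0.114, edgeR adjusted p = 0.395).

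Of the replicative H2A genes, HTA10 (AT1G51060, chr1:18926811-18927746, plus strand) had the highest level and the only log2 fold change above 0 among the H2A genes. It had 67.7, 107 and 89.5 CPM in treated seedlings and 90.0, 75.5 and 73.1 CPM in control seedlings, so that the lowest and the highest value were both from treated libraries (log2 fold change 0.15, SE 0.140, edgeR adjusted p = 0.587). Without treated library 2 it was -0.01. HTA1 (AT5G54640, chr5:22196287-22197492, plus strand), known for its part in *Agrobacterium* transformation of roots, had 12.8, 12.2 and 17.3 CPM in treated seedlings and 14.5, 17.4 and 19.2 CPM in control seedlings (log2 fold change -0.28, SE 0.143, edgeR adjusted p = 0.270). HTA2 and HTA13 had values of -0.16 and -0.04.

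Together the 4 genes summed to 161 ± 27.5 CPM in treated and 159 ± 3.74 CPM in control seedlings (SD, n = 3 each), so the means were close while the treated libraries were far more spread. Shares per kilobase were taken among the 12 H2A genes of the rule. HTA3, another measured H2A.X gene, fell outside the rule and is not in them. The replicative kind made up 33.5 ± 2.24% in treated and 30.9 ± 1.35% in control seedlings (SD, n = 3 each, as for the other kinds). H2A.Z made up 30.3 ± 2.72% and 31.8 ± 2.99%, H2A.W 28.3 ± 1.60% and 28.9 ± 1.02%, and H2A.X 7.98 ± 0.608% and 8.38 ± 1.24%. For each kind the libraries of the 2 groups overlapped.

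The 10 H2B genes were divided evenly in direction, 5 above 0 and 5 below, and summed to 621 ± 65.7 CPM in treated and 625 ± 34.5 CPM in control seedlings (SD, n = 3 each). HTB4 (AT5G59910, chr5:24126877-24128162, plus strand), which gave 25.8% of that sum, had 148, 164 and 172 CPM in treated seedlings and 161, 165 and 154 CPM in control seedlings. The groups overlapped, with a log2 fold change of 0.01 (SE 0.075) and a 95% interval of the fold from 0.901 to 1.13. Without treated library 3 or control library 3 it was -0.04 or -0.01.

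HTB7 (AT3G09480, chr3:2914701-2915442, minus strand) was an H2B gene of low level with the largest difference of the 42. It had 1.77, 1.99 and 1.89 CPM in treated seedlings and 2.83, 2.55 and 2.90 CPM in control seedlings, with no overlap. The log2 fold change was -0.56 (SE 0.186), a fold of 0.677 with a 95% interval from 0.511 to 0.896, at an edgeR p of 0.011 and an adjusted p of 0.083. It missed both limits of the study. HTB10, the other H2B gene of low level, had 1.59, 1.67 and 1.94 CPM in treated seedlings and 0.912, 1.65 and 1.60 CPM in control seedlings, where control library 1 alone stood apart. HTB10 (chr5:576655-577176) lies wholly inside the span of the H2A.W gene HTA12 (chr5:575225-577216) on the opposite strand. The sources used here do not name the strand setting of the counting, so reads of these 2 genes may be mixed.

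HTB5 was the only histone gene to pass the adjusted p in a fit that left out 1 library. It had 35.7, 51.3 and 38.9 CPM in treated seedlings and 58.7, 47.7 and 44.6 CPM in control seedlings (log2 fold change -0.26, SE 0.133, edgeR adjusted p = 0.267). Without treated library 2 the log2 fold change was -0.42 and the edgeR adjusted p was 0.025, still short of the fold limit. With any other library left out, its adjusted p stayed above 0.05.

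The 5 H3.1 genes summed to 237 ± 55.9 CPM in treated and 249 ± 27.5 CPM in control seedlings (SD, n = 3 each). The single sums of 177, 288 and 246 CPM in treated and 278, 243 and 224 CPM in control seedlings showed a wider spread in the treated group than any difference between the groups. HTR1, which gave 42.5% of the sum, had 76.7, 126 and 104 CPM in treated seedlings and 117, 104 and 92.3 CPM in control seedlings (log2 fold change -0.03, SE 0.148, edgeR adjusted p = 0.931). Its sign turned without treated library 1 (0.14) or without control library 1 (0.06). HTR9 (AT5G10400, chr5:3270172-3270957, minus strand) had 34.9, 51.7 and 48.4 CPM in treated seedlings and 56.2, 50.3 and 46.1 CPM in control seedlings (log2 fold change -0.18, SE 0.129, edgeR adjusted p = 0.465). HTR2, whose promoter is printed above, had the widest range of the 42 among treated libraries, with 39.6, 81.3 and 63.5 CPM in treated seedlings and 71.7, 63.5 and 58.4 CPM in control seedlings, a 2.05-fold range within the treated group. HTR3 and HTR13 had log2 fold changes of -0.18 and 0.03.

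The 3 H3.3 genes were more even between libraries. They summed to 527 ± 40.2 CPM in treated and 545 ± 23.3 CPM in control seedlings (SD, n = 3 each). HTR5, the histone gene with the highest level, had 264, 232 and 271 CPM in treated seedlings and 254, 279 and 285 CPM in control seedlings (log2 fold change -0.09, SE 0.081, edgeR adjusted p = 0.556). Its neighbour HTR4, on the same strand 43 bases away, and HTR8 had log2 fold changes of 0.03 and -0.10.

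Per kilobase of exon, the H3.3 genes together stood above the H3.1 genes by a ratio of 1.73, 1.00 and 1.37 in treated libraries and 1.1, 1.38 and 1.46 in control libraries. The means of 1.37 ± 0.365 and 1.31 ± 0.185 (SD, n = 3 each) differed by less than the spread, and the highest and the lowest ratio were both from treated libraries. HTR12 (AT1G01370, chr1:143489-146479, plus strand), which encodes the centromeric H3 that marks the site of kinetochore assembly, had 4.54, 3.47 and 4.86 CPM in treated seedlings and 4.92, 4.85 and 4.69 CPM in control seedlings (log2 fold change -0.15, SE 0.159, edgeR adjusted p = 0.636).

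The 8 H4 genes were divided evenly, 4 above 0 and 4 below, and summed to 480 ± 55.0 CPM in treated and 502 ± 77.7 CPM in control seedlings (SD, n = 3 each). AT5G59690 (chr5:24051474-24052218, plus strand) had the highest level and the smallest p of the class, with 105, 125 and 121 CPM in treated seedlings and 148, 119 and 129 CPM in control seedlings. The groups overlapped, and the log2 fold change was -0.18 (SE 0.093, edgeR adjusted p = 0.286). The other 7 ran from -0.15 for AT3G53730 to 0.09 for AT5G59970. Because H4 genes share sequence, single H4 levels are less certain than the sum. Of the 8, 6 share stretches of 50 bases with other places in the genome, and 4 of them share stretches of 100 bases, in up to 12.1% of the positions of a gene (AT3G46320).

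Linker histone HON3 (AT2G18050, chr2:7845923-7847031, plus strand), known as an H1 variant raised by drought and low light, had the highest fold change of the 42. It had 3.04, 4.30 and 2.23 CPM in treated seedlings and 2.19, 2.96 and 2.15 CPM in control seedlings, with overlapping groups, a log2 fold change of 0.38 (SE 0.254) and an edgeR adjusted p of 0.411. With 1 library left out it ran from 0.14 without treated library 2 to 0.59 without treated library 3. The main linker genes HON1 and HON2 had log2 fold changes of -0.09 and -0.06, and none of the 3 linker genes passed the adjusted p. AT5G50930, outside the classes, had 2.31, 2.25 and 1.89 CPM in treated seedlings and 2.83, 2.96 and 2.5 CPM in control seedlings, without overlap (log2 fold change -0.34, SE 0.190, edgeR adjusted p = 0.312).

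**Figure D3:**
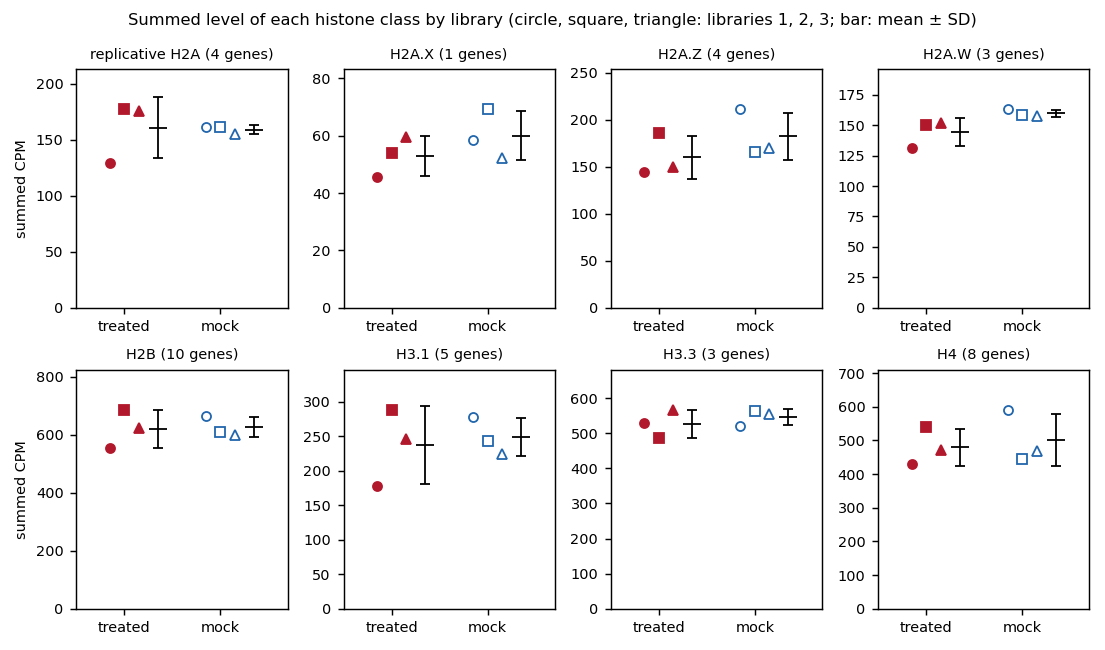
Summed TMM-normalized CPM of each histone class in each library, with treated libraries left (filled) and control (mock) libraries right (open), marker shapes for library 1, 2 and 3, and mean ± SD as bars. The groups overlap in each class except H2A.W, whose treated libraries lie at 131 to 152 CPM and control libraries at 157 to 163 CPM. Among single tested genes, 13.8% did not overlap in that direction.

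Many histone genes shared a pattern between libraries of the same group, part of which some but not all other gene lists showed as well. Treated library 1 was the lowest of the treated libraries for 31 of the 42 genes (73.8%, against 29.4% of all tested genes), and treated library 2 the highest for 23 (54.8%, against 38.5%). Control library 1, the one with the fewest counts, was the highest control library for 25 (59.5%, against 38.9%). For H4, control library 1 was the highest control library for 7 of 8 genes and treated library 2 the highest treated library for 7 of 8. For H3.1, control library 1 was the highest for 5 of 5 genes and treated library 1 the lowest for 4 of 5. None of the 3 H3.3 genes was highest in control library 1 or in treated library 2. Of the 14 genes of S phase entry described below, treated library 2 was the highest treated library for 78.6% and control library 1 the highest control library for 71.4%, and of the 19 histone chaperone genes for 68.4% and 52.6%. These 2 shares were 48.4% and 35.5% for DNA replication genes, 31.6% and 26.3% for mitosis genes, and 10% and 30% for remodeller genes. Treated library 1 was the lowest treated library for 42.9% of the S phase entry genes and 15.8% of the chaperone genes. For DNA replication, mitosis and remodeller genes that share was 32.3%, 26.3% and 30%.

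The lean towards lower values was smaller without either library 1. These were the lowest treated library and the highest control library for most histone genes. A smaller lean without them follows from those ranks. All 42 genes together summed to 2151, 2576 and 2455 CPM in treated libraries and 2658, 2430 and 2393 CPM in control libraries, or 2394 ± 219 and 2493 ± 144 CPM (SD, n = 3 each). Without treated library 1 the median log2 fold change of the histone genes was -0.007 and 22 of 42 were below 0, and without control library 1 it was -0.011 with 22 of 42 below 0. Without treated library 2 it was -0.11 with 33 of 42 below 0. No histone gene passed the adjusted p in the first 2 of these fits, and only HTB5 did in the third. Without treated library 3, control library 2 or control library 3 the median was -0.09, -0.09 or -0.12. In those fits 29, 33 and 29 of the 42 genes were below 0. Across all tested genes, the deviations of treated library 2 and control library 1 from their group means correlated at 0.422, the highest of the 9 pairs of a treated and a control library (across genes, which are not independent replicates). These 2 libraries also had the lowest sums of the 3 leaf marker genes in their groups. The leaf sums were 17649, 14385 and 21589 CPM in treated libraries and 13804, 18756 and 17060 CPM in control libraries. The 3 root marker genes had their lowest sums in the same 2 libraries. The root sums were 36.1, 32.6 and 38.4 CPM in treated libraries and 24.2, 26.7 and 25.6 CPM in control libraries. The part of these marker sums in the histone values was not tested.

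**Figure D4:**
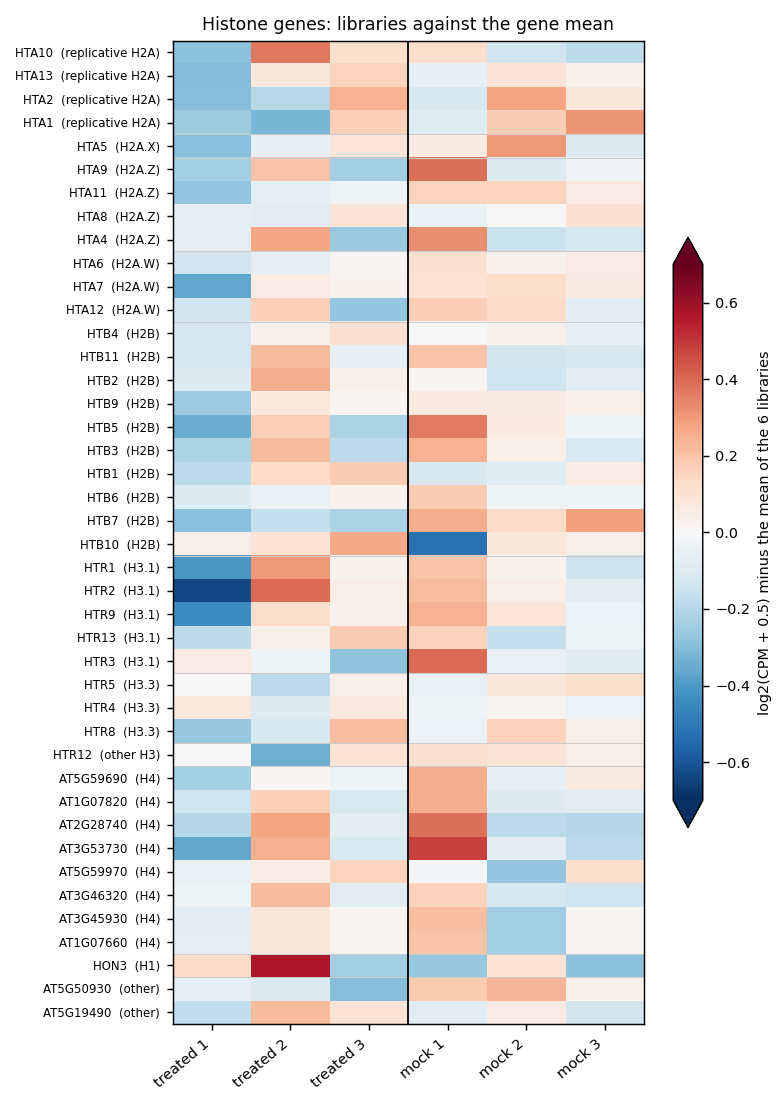
Log2(CPM + 0.5) of each histone gene minus its mean over the 6 libraries, treated libraries left and control (mock) libraries right; red is above and blue below the gene's mean. Treated library 1 is mostly blue (lowest treated value in 31 of 42 genes), and treated library 2 and control library 1 are mostly red among the H4, H3.1 and H2B genes.

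Differences were also listed for neighbouring genes and for genes with a shared promoter motif. Of the 42 genes, 19 lay within 50000 bases of another histone gene, among them the H3.1 neighbours HTR9 and HTR13 (578 bases apart) and the H2B and H4 neighbours HTB3 and AT2G28740 (1537 bases apart), whose log2 fold changes were -0.12 and -0.01. The 9 genes with the octamer had log2 fold changes from -0.18 (HTR9 and AT5G59690) to 0.15 (HTA10). They were not tested against the histone genes without the octamer.

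Genes that act with histones were examined for the same contrast, in lists of replication, cell cycle, chaperone and remodelling genes. DNA replication genes, which are transcribed in the same phase as replicative histones, had a median log2 fold change of 0.10 over 31 genes, with 22 above 0 and 9 below. TSO2, a small subunit of the ribonucleotide reductase that makes deoxynucleotides, passed the adjusted p with 79.0, 88.1 and 81.5 CPM in treated seedlings and 70.5, 65.1 and 63.7 CPM in control seedlings (log2 fold change 0.32, SE 0.072, edgeR adjusted p = 0.016). All its treated values were above all control values, though the fold stayed under 1.5, and it was the only replication gene to pass. Without control library 2 or 3 its adjusted p was 0.074 or 0.093. At an unadjusted p under 0.05, 5 of the 31 replication genes were higher and 1 was lower, against 12.1% and 11.2% of all tested genes. Under DESeq2, or without control library 3, 2 were higher and 0 lower. Without treated library 1, 3 were higher.

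For genes of S phase entry (14 genes) the median was -0.005 and for genes of mitosis (19 genes) it was 0.08, and no gene of either list passed the adjusted p. The mitotic cyclin CYCB1;2 came closest, with 26.9, 23.2 and 25.7 CPM in treated seedlings and 19.5, 21.3 and 22.2 CPM in control seedlings (log2 fold change 0.27, SE 0.088, edgeR adjusted p = 0.086). It passed without treated library 2, at an adjusted p of 0.0418. E2FA, a transcription factor that activates replication genes, had the smallest p among the S phase entry genes, with 7.17, 7.45 and 7.35 CPM in treated seedlings and 5.10, 5.76 and 6.89 CPM in control seedlings (log2 fold change 0.28, SE 0.135, edgeR adjusted p = 0.244). Its sister activator E2FB, with the next smallest p, had 5.72, 6.74 and 6.75 CPM in treated seedlings and 8.48, 6.99 and 7.59 CPM in control seedlings (log2 fold change -0.26, SE 0.130, edgeR adjusted p = 0.247). Neither passed, and each had no overlap between groups, in opposite directions. They were the only 1 of the 14 genes in each direction without overlap. Of all tested genes, 14.5% did not overlap in the higher and 13.8% in the lower direction. The difference between the lists and the histone genes was not tested.

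Histone chaperones, which hand histones to the replication fork or to transcribed genes, had a median of 0.05 over 19 genes with none past the adjusted p. UBN2, a subunit of the HIR complex that deposits H3.3, had 4.81, 4.88 and 3.92 CPM in treated seedlings and 3.65, 3.29 and 3.3 CPM in control seedlings (log2 fold change 0.41, SE 0.160, edgeR adjusted p = 0.138). The remodellers that exchange variants, among them the SWR1 complex, had a median of -0.02 over 10 genes with none past the adjusted p. SWC6, a SWR1 subunit needed to load H2A.Z, had 6.30, 6.42 and 7.25 CPM in treated seedlings and 7.11, 8.56 and 8.59 CPM in control seedlings (log2 fold change -0.29, SE 0.126, edgeR adjusted p = 0.190).

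**Figure D5:**
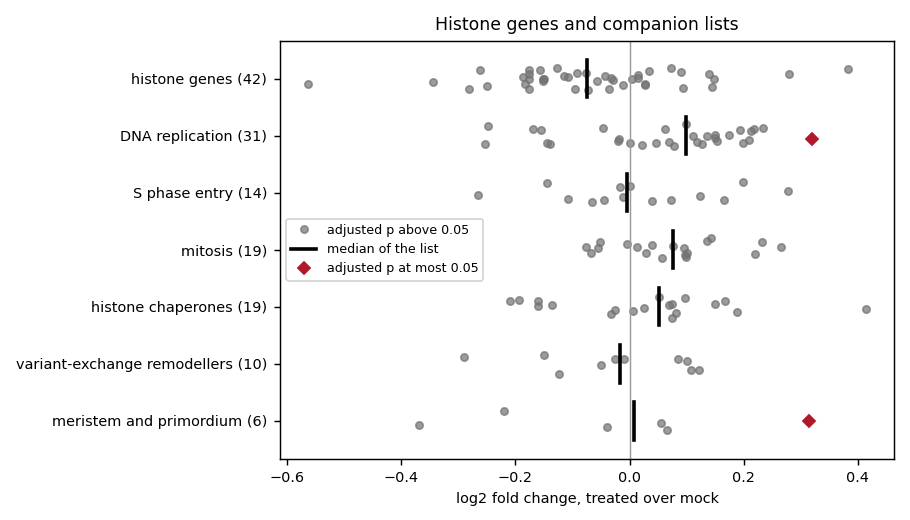
Log2 fold change (treated over control) of the histone genes and of the genes of each companion list, with the number of genes in brackets, 1 point per gene and a black bar at the list's median. Red diamonds mark the genes with an adjusted p of at most 0.05, which are TSO2 and SCR.

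The labelled tissue was checked with marker genes of leaf, root and meristem. Leaf markers (RBCS1A, LHCB1.1 and CA1) summed to 14385 to 21589 CPM in treated and 13804 to 18756 CPM in control seedlings, and root markers (PHT1;1, COBL9 and CASP1) to 32.6 to 38.4 CPM in treated and 24.2 to 26.7 CPM in control seedlings. No marker was at 0, but only genes reaching 1 CPM in 2 or more libraries were listed, so this says little. The root sums did not overlap, and 2 of the 3 root markers passed both limits, while CASP1 of the endodermis did not (log2 fold change 0.02). The phosphate transporter gene PHT1;1 had 21.3, 17.4 and 23.5 CPM in treated seedlings and 10.5, 12.0 and 13.4 CPM in control seedlings (log2 fold change 0.78, edgeR adjusted p = 0.0024). The root hair gene COBL9 had 3.63, 2.83 and 2.98 CPM in treated seedlings and 1.55, 1.89 and 2.00 CPM in control seedlings (log2 fold change 0.78, edgeR adjusted p = 0.030). COBL9 missed the adjusted p under DESeq2 and in each fit that left out 1 library, except the one without treated library 2. Of the leaf markers CA1, a carbonic anhydrase gene, passed the adjusted p but not the fold limit, with 2845, 2848 and 2871 CPM in treated seedlings and 1860, 1988 and 1997 CPM in control seedlings (log2 fold change 0.55, edgeR adjusted p = 0.0011).

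Of 11 meristem and primordium genes 6 were tested, while PLT1, PLT2, CUC2, CUC3 and WOX5 were not among the listed genes. The 6 summed to 91.8 to 98.2 CPM in treated and 90.0 to 94.5 CPM in control seedlings, with overlap. SCR, which patterns the root stem cell niche and the endodermis, passed the adjusted p with 34.1, 30.1 and 30.7 CPM in treated seedlings and 23.9, 27.4 and 25.1 CPM in control seedlings (log2 fold change 0.31, edgeR adjusted p = 0.036), though not under DESeq2 or in the fits that left out 1 library, except the one without treated library 2. The median of the 6 was 0.01, with 3 above and 3 below 0. The part of these marker differences in the histone values was not tested.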

How the data were processed

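Per the labels and the study's methods, the authors used Trimmomatic 0.36 for trimming, HISAT2 2.1.0 for alignment (TAIR10) and HTSeq-count for counting per gene. The strand setting and annotation version were not given in the sources used here. Raw counts were deposited for 19616 genes, each reaching 1 CPM in 2 or more libraries, beside the authors' CPM, which were counts scaled to a fixed library total. The deposited log2 values and the deposited p-values and FDR came from the authors' own edgeR comparison and were not used.

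Counts of the 3 treated and 3 control libraries were fitted in edgeR 4.0.16 (R 4.3.3) with filterByExpr, which removed 1 gene, TMM factors, glmQLFit and glmQLFTest. P-values were adjusted by Benjamini-Hochberg over all 19615 tested genes, and the limits were 0.05 for the adjusted p and 1.5 for the fold. The fit was tested on simulated data with 50 changed genes at each fold. Adjusted p alone recovered 12 at 1.25-fold, 43 at 1.5-fold and 50 at 2-fold. Both limits together recovered 1, 25 and 50. The simulation gave every gene the same spread, unlike the data. Its changed genes were drawn only from those with a mean log2 CPM above 2. The recovery therefore does not cover HTB7, HTB10, HON3, AT5G50930 and AT5G19490, which lay below that level. Alternatives were other normalizations and filters, DESeq2 1.42.0, limma-voom (limma 3.58.1), a replicate block and each library left out in turn. Histone classes follow the Arabidopsis gene names. Values in every library are given for the member with the smallest p and the one with the highest mean of each class, and for the gene with the smallest p of each companion list or any called there. HTA7, HTB5, HTB10, HTR2 and E2FB were named after their values were seen. The members, classes and companion lists (replication, S phase entry, mitosis, chaperones, remodellers, linker histones, meristem, leaf and root markers) were chosen with earlier results of these data known.

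Sequences, coordinates and exon lengths were read from RefSeq TAIR10.1, in which all 42 locus identifiers were matched.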

Additional observations from a re-analysis of the deposited data

How the results depend on the processing

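The count of histone genes called at both limits was 0 in each direction under every alternative run. By adjusted p alone it was also 0, except for 0 to 1 lower genes over the fits that left out 1 library (HTB5 without treated library 2). The median log2 fold change of the histone genes stayed below 0 in all alternatives, from -0.12 to -0.007 with 1 library left out. With 1 library left out, the log2 fold change of HTR1 ran from -0.21 to 0.14 (above 0 without treated library 1 or control library 1), that of HTA10 from -0.014 to 0.31 (below 0 without treated library 2) and that of HTB4 from -0.038 to 0.074 (below 0 without treated library 3 or control library 3). None of these genes was called. Over all tested genes, adjusted p alone took 515 to 983 higher and 485 to 927 lower genes with 1 library left out (1001 and 887 with all 6), where fewer samples were fitted. With 1 library left out it took 0 to 1 higher genes for DNA replication, 0 to 1 for meristem and primordium and 0 to 1 for mitosis (CYCB1;2 without treated library 2), and under DESeq2 it took 0 for meristem and primordium. The replicate numbers of the labels are not stated to pair the samples, and deviations of same-numbered libraries correlated at -0.185, -0.274 and 0.149. With a replicate block, adjusted p alone took 593 higher and 522 lower genes of all tested, 0 of the 42 histone genes, 0 higher DNA replication genes and 0 higher meristem and primordium genes, and COBL9 had an adjusted p of 0.081. The cause of these shifts was not tested. Counts as low as 10 limit what can be said of the weakest histone genes.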
